A study of Mus musculus with 42 samples.

Results

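The mevalonate arm of cholesterol synthesis was examined through 7 genes, Acat2, Hmgcs1, Mvk, Pmvk, Mvd, Idi1 and Fdps, out of the 54446 genes in the count table. The genes were taken by name from the enzymes that build farnesyl diphosphate from acetyl-CoA, and all 7 had enough counts to be tested.

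Bulk liver RNA of 42 female APOE*3-Leiden transgenic mice, each with its own library, was sequenced after 32 weeks of study. The group WTD held 16 mice that were 8 to 14 weeks old when their diet began. It was a Western-type diet with 1% cholesterol, 15% cocoa butter and 40.5% sucrose. These mice ate the diet for 3 weeks before the start of the study, and 0.05% sodium cholate was added to it from week 22. The group WTD+atorvastatin held 16 mice of the same age on the same diet, cholate included, with atorvastatin mixed in from the start of the study at 3.0 mg/kg/day and at 4.5 mg/kg/day from week 5. The group chow held 10 mice on a maintenance diet as a healthy reference, and their age was not given. All 3 groups carry the human transgene, which is known to make mice respond to dietary cholesterol and statins, so no group is free of it.

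In this pathway Acat2 joins acetyl-CoA units, Hmgcs1 adds the next one, and mevalonate is formed from the product. Mvk and Pmvk phosphorylate mevalonate, Mvd removes a carboxyl group to give isopentenyl diphosphate, Idi1 isomerizes that unit, and Fdps joins such units to farnesyl diphosphate, from which squalene, cholesterol, ubiquinone, dolichol and the lipid anchors of many proteins are made. In liver the genes of the pathway are under the control of SREBP2, a membrane-bound transcription factor that is held back when sterols are plentiful, and statins act by blocking the formation of mevalonate.

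The mice had 15661381 to 36224054 read pairs assigned to genes. In 8 libraries (3 of chow-fed, 4 of WTD-fed and 1 of atorvastatin-treated mice) over 20% of the genes that stood at 1 to 2 CPM (counts scaled to library size) in their group had no count at all. Calls, ratios and correlations of the members that depend on these libraries are given with and without them. Counts for other gene lists are with all libraries unless stated. The 8 hepatocyte markers, Alb and Hnf4a among them, were present in all groups. Their summed level was 103700 to 152700 CPM on chow, 48430 to 98840 on WTD and 57370 to 121000 with atorvastatin.

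To show the sequence in front of these genes, 250 bases before each start were read from RefSeq (GRCm38.p6), which had an entry for 6 of the 7 members, Fdps being the other. The SREBP-binding element TCACCCCAC, the same element with 1 letter free (TCACNCCAC), the NF-Y box CCAAT and the GC box GGGCGG, which Sp1 is known to bind, were searched on both strands. Every match of the first element also counts for the second, while CCAAT and GGGCGG lie in neither. In the 4 promoters printed here 5′ to 3′ in the direction of the gene, without bases that GENCODE places in an exon, capitals mark the matches, so that ATTGG is CCAAT and CCGCCC is GGGCGG on the other strand. Hmgcs1 is shown as the member with the full element, Mvk as the member with the most CCAAT boxes, Mvd as one with a box on each strand, and Pmvk as one with a single match.
Hmgcs1 (chr13:119690101-119690350, plus strand): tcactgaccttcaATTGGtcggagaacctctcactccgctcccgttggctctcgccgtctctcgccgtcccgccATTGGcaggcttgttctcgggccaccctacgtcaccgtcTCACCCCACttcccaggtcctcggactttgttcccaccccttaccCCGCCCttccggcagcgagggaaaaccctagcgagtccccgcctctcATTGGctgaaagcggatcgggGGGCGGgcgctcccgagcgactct
Mvk (chr5:114444061-114444268, plus strand): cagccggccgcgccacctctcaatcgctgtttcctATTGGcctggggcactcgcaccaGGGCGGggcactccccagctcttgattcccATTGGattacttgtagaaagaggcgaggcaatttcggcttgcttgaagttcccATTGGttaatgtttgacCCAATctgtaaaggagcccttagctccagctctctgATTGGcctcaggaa
Mvd (chr8:122443423-122443672, minus strand): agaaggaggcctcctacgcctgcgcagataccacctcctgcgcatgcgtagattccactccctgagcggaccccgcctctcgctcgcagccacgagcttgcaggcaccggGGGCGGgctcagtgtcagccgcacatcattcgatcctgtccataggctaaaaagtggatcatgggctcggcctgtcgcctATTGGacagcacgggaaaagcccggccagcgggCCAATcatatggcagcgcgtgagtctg
Pmvk (chr3:89454291-89454540, plus strand): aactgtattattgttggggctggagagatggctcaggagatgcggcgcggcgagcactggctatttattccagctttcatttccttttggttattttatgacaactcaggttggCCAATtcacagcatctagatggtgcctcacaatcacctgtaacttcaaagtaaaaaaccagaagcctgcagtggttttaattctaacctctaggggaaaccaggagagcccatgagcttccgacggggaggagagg

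Among these members only Hmgcs1 held TCACCCCAC, 137 bases before its start, a sequence that 0.496% of the 32851 promoters in the table held in a window of the same length. TCACNCCAC was in 1.05% of all promoters and in no other member with an entry. CCAAT was in 5 of the 6 members with an entry and in 33.8% of all promoters. Mvk had 5 copies of it, Hmgcs1 3, Mvd and Idi1 2 each, Pmvk 1 and Acat2 0, and 2.79% of all promoters had 3 or more. GGGCGG was in Acat2, Hmgcs1, Mvk, Mvd and Idi1 but not in Pmvk, and in 32.7% of all promoters. These are matches of letters in a short window, and no binding was measured.

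On WTD all 7 genes were lower than on chow, with log2 fold changes from -3.32 to -1.36, and all 7 passed the test (the quasi-likelihood test of edgeR, Benjamini-Hochberg adjusted p under 0.01). Of all 15574 tested genes 16.0% passed in this direction, and 33.5% in either. The median log2 fold change was -2.14 for the 7 genes and 0.03 for all tested genes. This median of the 7 is the value of Fdps, of which only a remainder of reads was counted. The values next to it were -1.81 for Mvk and -2.85 for Mvd. In 5 members every WTD-fed mouse lay below every chow-fed mouse, which held for 2.43% of all tested genes. In bulk tissue fewer cells of a type and less RNA per cell cannot be told apart.

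**Figure D1:**
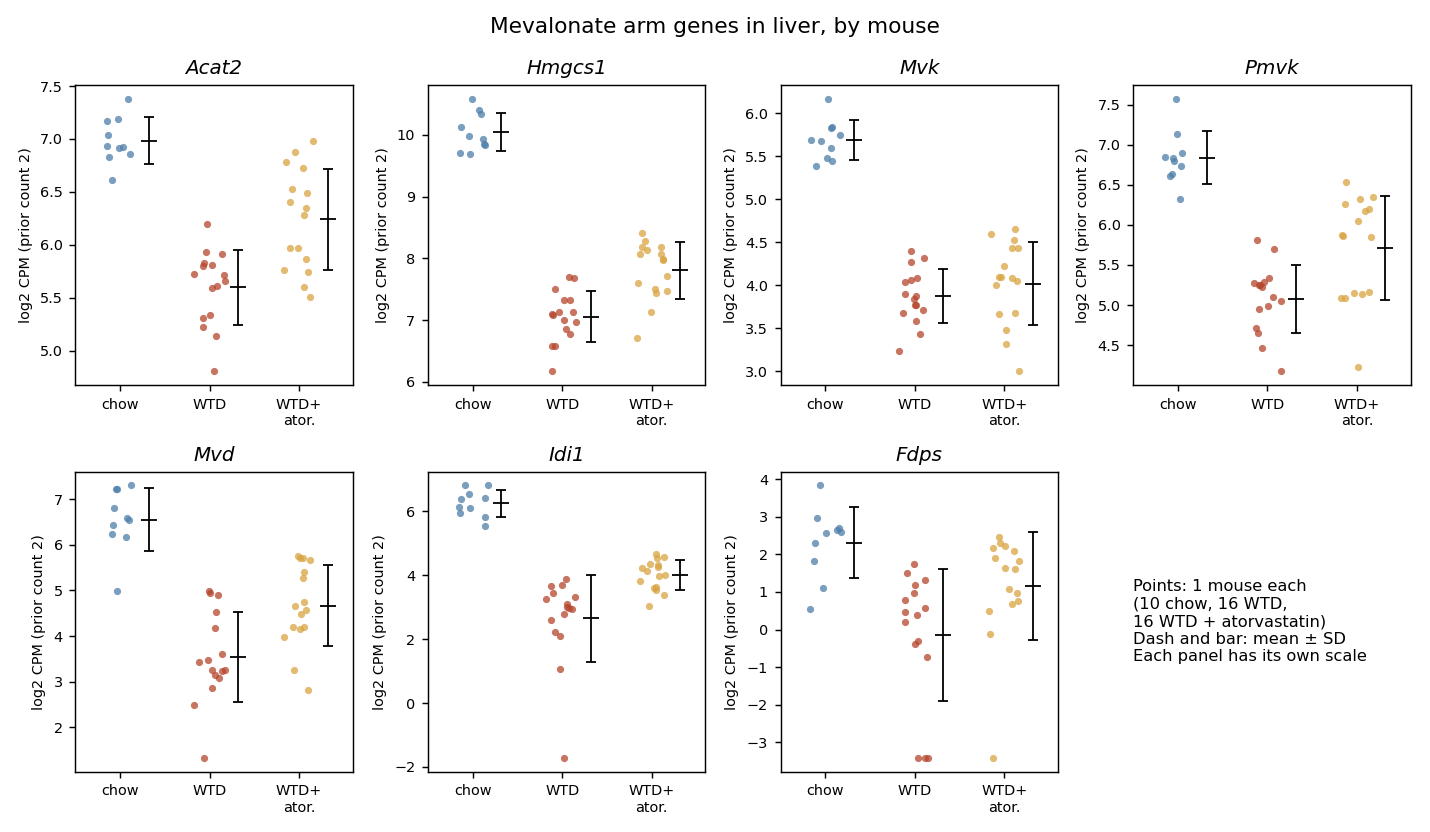
Level of the 7 genes in each mouse as log2 CPM with a prior count of 2, one point per mouse for chow (n = 10), WTD (n = 16) and WTD+atorvastatin (n = 16), with the mean and SD as dash and bar and a separate scale in each panel. By the mean, chow is highest and WTD lowest in every panel, and the means of the WTD-fed groups are closest in Mvk.

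Acat2 (chr17:12942890-12960747, minus strand), the cytosolic thiolase that opens the pathway, had 97.5 to 167 CPM on chow (median 122), 27.8 to 73.5 on WTD (median 51.5) and 45.5 to 127 with atorvastatin (median 79.5). The chow and WTD ranges did not overlap, while the treated mice reached from the WTD range into that of chow. The mean was 128 ± 19.8 CPM on chow (n = 10), 49.8 ± 11.5 on WTD (n = 16) and 79.4 ± 25.9 after atorvastatin (n = 16), each with its SD. Acat2 had the smallest fall of the 7 on WTD, with a log2 change of -1.36 ± 0.14 (SE, edgeR adjusted p = 7.72e-11). Its neighbour Acat3 is a near copy, with 97.7% identity over 65.6% of the Acat2 transcript, so reads that fit both equally are counted for neither. Acat3 itself had a log2 change of -0.86 on WTD (edgeR adjusted p = 1.14e-14).

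Hmgcs1 (chr13:119690379-119708260, plus strand), the cytosolic HMG-CoA synthase, was the most abundant member. It had 824 to 1540 CPM on chow (median 995), 71.9 to 207 on WTD (median 136) and 104 to 340 with atorvastatin (median 252). On WTD the gap to chow was wide, as the highest WTD-fed mouse stood far below the lowest chow-fed one. The WTD mean was 12.8% of the chow mean, and the log2 change was -2.97 ± 0.16 (SE, edgeR adjusted p = 8.96e-20). An antisense gene, Gm48342, overlaps 557 exon bases of Hmgcs1 but had 240 counts in all 42 mice together.

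Mvk (chr5:114444269-114460591, plus strand), mevalonate kinase, had 41.7 to 72.1 CPM on chow (median 51.3), 9.32 to 21.0 on WTD (median 14.4) and 7.91 to 25.1 with atorvastatin (median 17.0). The chow-fed mice stood apart from all others, and the range of the treated mice covered that of the WTD-fed mice. Its log2 change on WTD was -1.81 ± 0.14 (SE, edgeR adjusted p = 9.03e-16). Pmvk (chr3:89454541-89469013, plus strand), phosphomevalonate kinase, had 80.2 to 191 CPM on chow (median 112), 17.9 to 56.0 on WTD (median 35.8) and 18.7 to 92.5 with atorvastatin (median 58.2). Here too the WTD range ended below the chow range, but single treated mice reached it. The log2 change of Pmvk on WTD was -1.75 ± 0.19 (SE, edgeR adjusted p = 3.5e-10).

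Mvd (chr8:122433601-122443422, minus strand), mevalonate diphosphate decarboxylase, had the highest coefficient of variation of the 6 well-counted members in every group. It had 31.5 to 158 CPM on chow (median 94.4), 2.41 to 31.9 on WTD (median 10.0) and 6.99 to 54.0 with atorvastatin (median 24.4). The highest WTD-fed mouse slightly exceeded the lowest chow-fed one, and all others of the 16 lay below it. That chow-fed mouse, replicate 5, is one of the 8 libraries that lack weak genes, and the next chow-fed mouse had 72.1 CPM. The coefficient of variation over all mice was 39.3% on chow, 66.6% on WTD and 54.6% with atorvastatin. The log2 change on WTD was -2.85 ± 0.34 (SE, edgeR adjusted p = 3.45e-09).

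Idi1 (chr13:8885501-8892451, plus strand), isopentenyl diphosphate isomerase, fell most of the 7 on WTD. It had 46.1 to 112 CPM on chow (median 76.9), 0.209 to 14.8 on WTD (median 7.92) and 8.17 to 25.4 with atorvastatin (median 16.7). Neither of the WTD-fed groups overlapped with chow. The WTD mean was 10.0% of the chow mean, with a log2 change of -3.32 ± 0.27 (SE, edgeR adjusted p = 2.11e-13). The lowest WTD-fed mouse, replicate 10, had 4 counts of Idi1 and is one of the 8 libraries that lack weak genes, and without these libraries the log2 fold change was -3.28. Its processed pseudogenes Gm13502 and Gm35570, at 100% and 97.7% identity over parts of the transcript, had 229 and 606 counts in all mice.

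Fdps (chr3:89093588-89101959, minus strand), farnesyl diphosphate synthase, could be followed only through a remainder of its reads. Of the 1382 bases of its main transcript, 1124 (81.3%) are also exon of the readthrough gene Gm43738 on the same strand, and pseudogenes such as Gm3571 match 76.8% of the transcript at 98.9% identity. HTSeq-count does not assign reads that fit more than 1 gene or place, and Gm43738 itself was left with 8 counts in all mice. Fdps had 22 to 244 counts per mouse on chow, 0 to 89 on WTD and 0 to 158 with atorvastatin, and it was listed at 0 in 3 WTD-fed and 1 treated mouse. These counts gave 1.38 to 14.2 CPM on chow (median 5.92), up to 3.27 on WTD (median 1.26) and up to 5.37 with atorvastatin (median 2.98). The log2 change on WTD was -2.14 ± 0.52 (SE, edgeR adjusted p = 0.000626), which describes those reads and not the level of the gene.

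**Figure D2:**
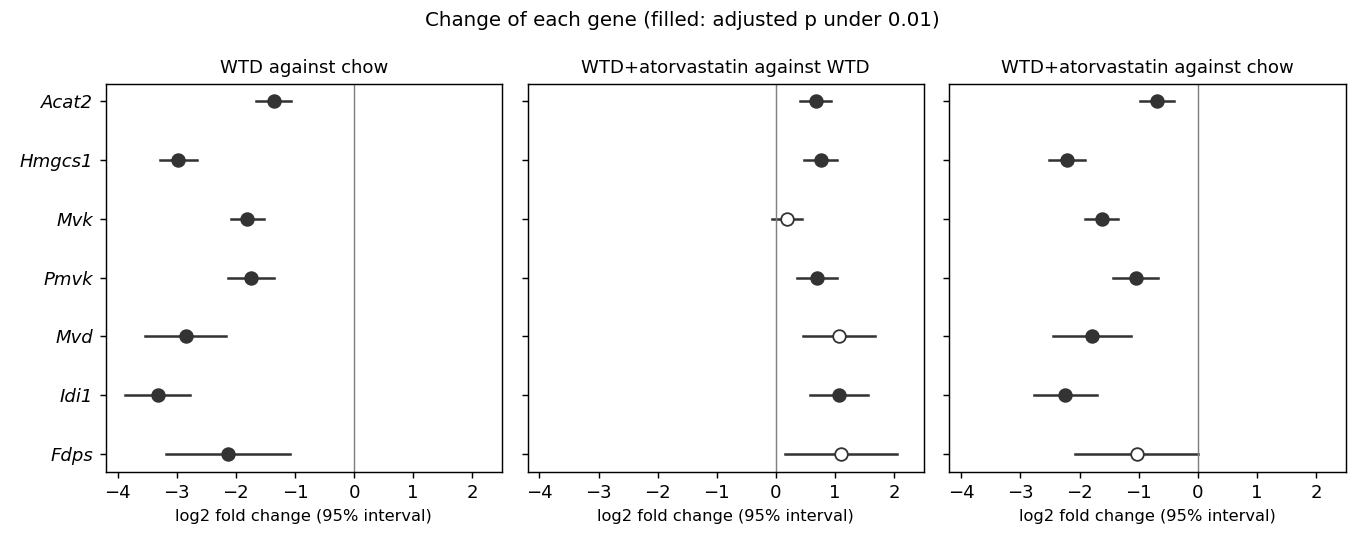
Log2 fold change of each gene with its 95% interval in the 3 comparisons, filled where the adjusted p was under 0.01. All genes lie left of 0 between WTD and chow, while between WTD+atorvastatin and WTD Mvk has the estimate nearest to 0 (0.18, from -0.07 to 0.44).

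Compared to WTD-fed mice, atorvastatin-treated mice had higher levels of Acat2, Hmgcs1, Pmvk and Idi1. These 4 of the 7 genes passed the test, against 4.84% of all tested genes that passed in this direction and 7.1% in either, and the median log2 fold change of the 7 was 0.76 against 0.00 for all tested genes. Idi1 rose by 1.08 ± 0.24 in log2 units (SE, edgeR adjusted p = 0.00183), and all 16 treated mice lay above the WTD median. Hmgcs1 rose by 0.76 ± 0.14 in log2 units (SE, edgeR adjusted p = 0.000157), and 10 of the 16 treated mice exceeded the highest WTD-fed mouse. Acat2 rose by 0.67 ± 0.13 in log2 units (SE, edgeR adjusted p = 0.000278), while Acat3 had 0.12 (adjusted p = 0.246 by edgeR). Pmvk rose by 0.70 ± 0.17 in log2 units (SE, edgeR adjusted p = 0.00394), with 10 of 16 treated mice above the highest WTD-fed mouse. These 10 had 57.4 to 92.5 CPM of Pmvk, and the other 6 (replicates 1, 2, 3, 4, 7 and 15) had 18.7 to 35.7, below the WTD median. The same 6 mice stood apart in other measures, with TMM scaling factors of 1.02 to 1.11 against 0.89 to 0.98 in the 10, and a mean log2 level of the hepatocyte markers of 10.76 to 11.09 against 11.18 to 11.47. In Acat2, too, these 6 mice (45.5 to 62.7 CPM) lay below the other 10 (62.8 to 127). The part of these differences in the result was not tested. Without the 8 libraries that lack weak genes Pmvk had a log2 change of 0.58 (edgeR adjusted p = 0.0479) and was no longer called, so 3 members passed. In 0 members did every treated mouse lie above every WTD-fed mouse, which held for 0.00642% of all tested genes. At an unadjusted p under 0.05 by edgeR, 6 of the 7 differed, as did 24.5% of all tested genes.

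Mvd, Fdps and Mvk did not pass. Mvd had a log2 change of 1.06 ± 0.30 (SE, edgeR adjusted p = 0.0139), close to the threshold, and 14 of 16 treated mice lay above the WTD median. With DESeq2 its adjusted p was 0.00517 and with limma-voom 0.00102. Without the 8 libraries that lack weak genes Mvd had a log2 change of 0.74 (edgeR adjusted p = 0.0999). Over all alternatives, including 1 added after the data were seen, its adjusted p lay between 0.00102 and 0.995. Fdps had 1.11 ± 0.47 (SE, edgeR adjusted p = 0.122). For Mvk the estimate was 0.18 with a 95% interval from -0.07 to 0.44 (adjusted p = 0.398 by edgeR), so that a rise of the size estimated for Acat2 lay outside the interval.

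Atorvastatin-treated mice were still below chow-fed mice in 6 of the 7 genes, where 10.7% of all tested genes passed in this direction, 14.2% in the other and 25.0% in either. The log2 fold changes of the 6 were -0.69 for Acat2, -1.05 for Pmvk, -1.62 for Mvk, -1.79 for Mvd, -2.21 for Hmgcs1 and -2.24 for Idi1, and that of Fdps was -1.03 (adjusted p = 0.12 by edgeR). Hmgcs1, Mvk and Idi1 did not overlap between these groups, which held for 1.5% of all tested genes. Relative to the chow mean, treated mice had 62.1% of Acat2 and 48.4% of Pmvk but 21.6% of Hmgcs1 and 21.2% of Idi1. The 3 comparisons share mice, so their values are set side by side and are not independent of each other.

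Whether the members moved by the same amount was tested through the log2 ratio of 2 members within each mouse, which does not depend on the scaling of the libraries (two-sided permutation tests with 100000 resamples, adjusted over 21 pairs in 3 comparisons). Between WTD and chow 11 of 21 ratios differed. Acat2 was higher relative to Hmgcs1 by 1.61 ± 0.10 (SE, adjusted p = 6.3e-05, where 1e-05 is the smallest unadjusted p the permutations can give). On WTD Acat2 was also higher relative to Mvk, Pmvk, Mvd and Idi1, by 0.38 to 2.25 (permutation tests, adjusted p from 6.3e-05 to 0.0261). For Hmgcs1 the difference was -1.17 ± 0.17 relative to Mvk and -1.23 ± 0.14 relative to Pmvk (SE, permutation tests, adjusted p = 6.3e-05 for each). For Hmgcs1 against Mvd the difference was 0.03 ± 0.28 (SE, permutation test, adjusted p = 0.947). By these ratios the thiolase and both kinases fell less than the decarboxylase and the isomerase, and less than the synthase. Without the 8 libraries that lack weak genes, 2 of these differences did not pass. Mvk relative to Mvd had 0.91 ± 0.30 and Acat2 relative to Pmvk 0.34 ± 0.13 (SE, permutation tests, adjusted p = 0.0811 and 0.0633). The other ratios that differed between WTD and chow passed there too.

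Between atorvastatin-treated and WTD-fed mice, 6 of 21 ratios differed, and 4 of the 6 involved Mvk. Relative to Mvk, Idi1 was higher by 1.24 ± 0.40 (SE, permutation test, adjusted p = 0.000105), Mvd by 0.98 ± 0.36 (adjusted p = 0.0245), Hmgcs1 by 0.60 ± 0.19 (adjusted p = 0.00842) and Acat2 by 0.49 ± 0.17 (adjusted p = 0.016). Pmvk, the kinase that follows Mvk, was higher relative to it by 0.48 ± 0.21 and did not pass (SE, permutation test, adjusted p = 0.0571), and nor did Fdps (adjusted p = 0.158). The other ratios that differed were those of Acat2 and Pmvk to Idi1 (permutation tests, adjusted p = 0.0225 and 0.0226). Without the 8 libraries that lack weak genes 3 ratios differed, and all 3 involved Idi1. It was then higher by 0.71 ± 0.14 relative to Mvk, by 0.39 ± 0.15 relative to Acat2 and by 0.41 ± 0.16 relative to Pmvk (SE, permutation tests, adjusted p = 0.000436, 0.0353 and 0.0464). The ratios of Acat2, Hmgcs1 and Mvd to Mvk did not pass there (permutation tests, adjusted p = 0.175, 0.123 and 0.259).

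**Figure D3:**
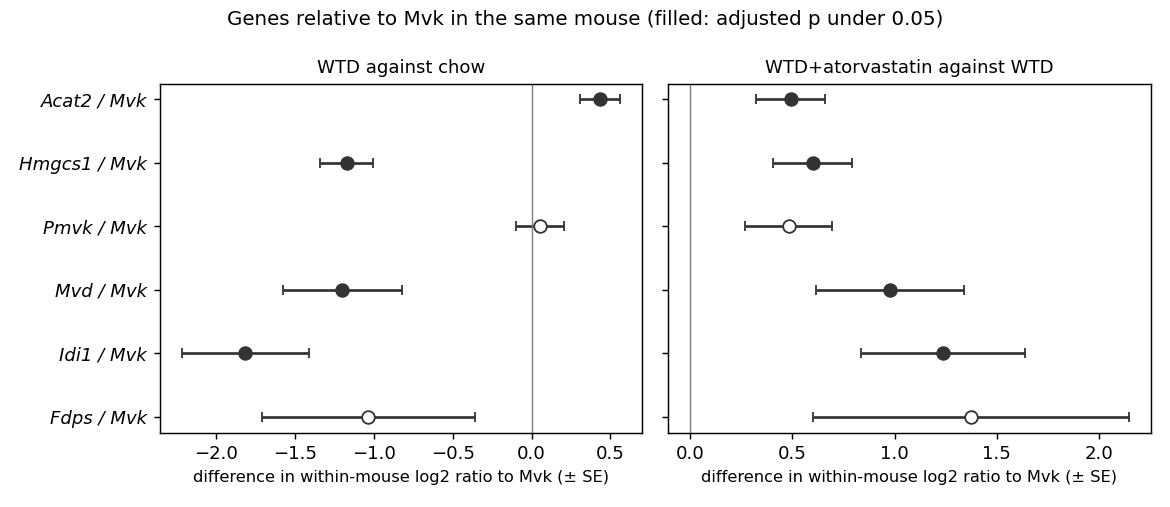
Difference between groups in the within-mouse log2 ratio of each member to Mvk, with its standard error, filled where the adjusted permutation p was under 0.05. In the right panel all 6 estimates lie above 0, from 0.48 to 1.37, and 4 of them passed.

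Correlations between members were computed among the mice of each group. On chow 2 of 21 pairs were correlated after adjustment over 63 tests, on WTD 6 and with atorvastatin 16, and the median Pearson r was 0.45, 0.21 and 0.75. With the 2 mice farthest from the median left out these medians were 0.23, 0.17 and 0.67. With Spearman's rho 1, 3 and 15 pairs passed. The closest pair among treated mice was Hmgcs1 with Pmvk (r = 0.93, rho = 0.87, permutation tests, adjusted p = 0.000158 and 0.000378, r = 0.88 without the 2 farthest mice). Among WTD-fed mice it was Acat2 with Hmgcs1 (r = 0.81, rho = 0.68, permutation tests, adjusted p = 0.00049 and 0.0232, r = 0.64 without the 2 farthest mice). Without the 8 libraries that lack weak genes 4, 2 and 16 pairs passed. The count in treated mice was lost without the 6 mice that stood apart in Pmvk and in the TMM factor. Among the other 10 treated mice 0 of 21 pairs passed by r or by rho in permutation tests, 6 and 4 pairs had an unadjusted p under 0.05, and the median r was 0.37. The median r among the 6 mice left out was 0.8. Leaving out these 6 mice was chosen after the data were seen. They are the treated mice with the lowest Pmvk, so the step narrows the range of a tested member as well as the number of mice. Fewer pairs can pass for that reason alone, so no conclusion is drawn from the lost count. A difference in r between groups was not tested, and chow has fewer mice.

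**Figure D4:**
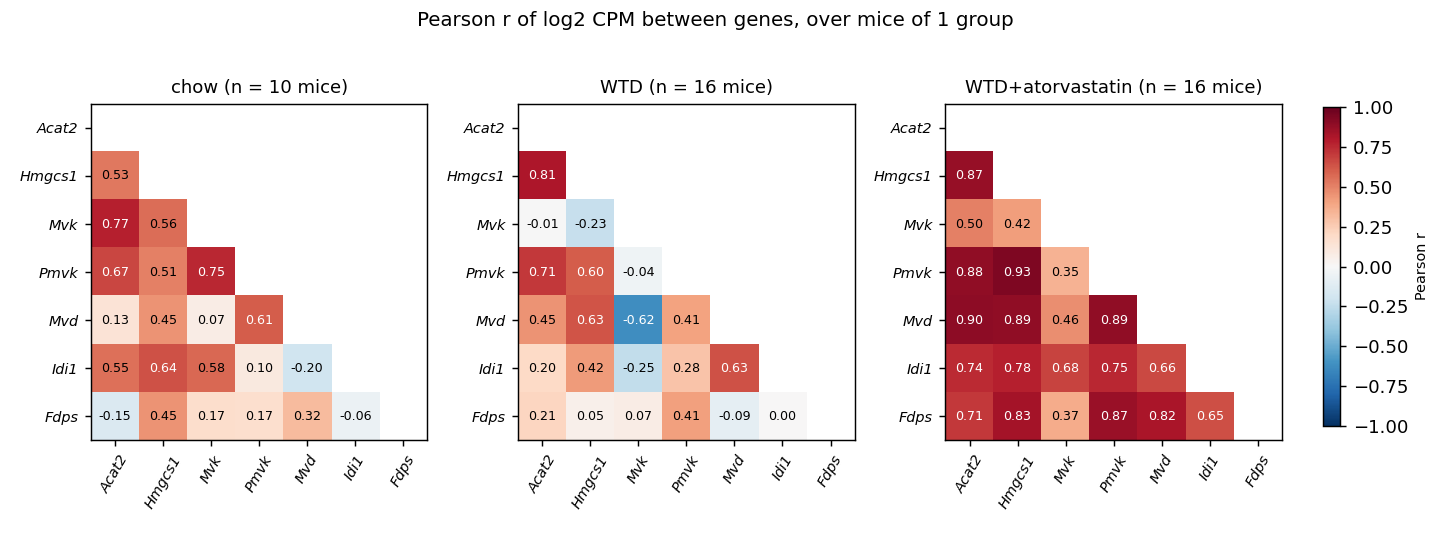
Pearson r between each pair of members over the mice of 1 group, on log2 CPM. In the WTD+atorvastatin panel all 21 values over its 16 mice are positive (0.35 to 0.93), while in the WTD panel the row and column of Mvk hold values from -0.62 to 0.07.

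In WTD-fed mice the r of Mvk with Mvd was -0.62 (rho = -0.49, permutation tests, adjusted p = 0.0298 and 0.121, r = -0.64 without the 2 farthest mice), and with the other members between -0.25 and 0.07. In chow-fed mice Mvk went with Acat2 (r = 0.77, rho = 0.77, permutation tests, adjusted p = 0.0293 and 0.0448, r = 0.46 without the 2 farthest mice) and in treated mice with Idi1 (r = 0.68, rho = 0.61, permutation tests, adjusted p = 0.0153 and 0.0448, r = 0.56 without the 2 farthest mice). Single mice carried several members at once. The chow-fed replicate 9 had the highest level of Acat2, Hmgcs1, Mvk, Pmvk and Idi1, and the treated replicate 7 the lowest of Hmgcs1, Pmvk, Mvd, Idi1 and Fdps.

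Per length of exon the order of the members differed little between groups. TPM here scales counts to the same sum in each mouse after dividing them by the bases in any exon of the gene. For Mvk these were 2675 bases, against 1602 in its main transcript, and for Idi1 3505 against 3027, so the order of members with close values can depend on the length used. Hmgcs1 was highest in every group, at 529 ± 126 TPM on chow, 89.8 ± 23.9 on WTD and 134 ± 31.4 with atorvastatin (SD, n = 10, 16 and 16). Pmvk was next in every group, at 153, 61.2 and 86.2 TPM. On chow Mvd (123 ± 47.8) and Acat2 (113 ± 17.1) followed within each other's spread, and then Idi1 (50.6 ± 15.6) and Mvk (43.6 ± 7.58), which also lay within each other's spread. On WTD Acat2 (58.4 TPM) stood next to Pmvk, and Mvk (16.6 ± 3.14) was above Idi1 (6.73 ± 3.30). Fdps was last in every group where its counts are the remainder described above.

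The later steps, from squalene to cholesterol, were given by 12 genes. Each of the 12 fell on WTD compared to chow (median log2 fold change -2.34) and rose with atorvastatin compared to WTD (median 0.76). The 7 members had medians of -2.14, which is the value of Fdps, and 0.76. Of all tested genes 16.0% were lower on WTD and 4.84% higher with atorvastatin. Without the 8 libraries that lack weak genes, 11 of the 12 passed with atorvastatin, where 487 of all 15877 genes tested there were higher. Of the 12, Sqle, squalene epoxidase, had the widest change in both comparisons, -3.40 on WTD and 1.61 with atorvastatin (adjusted p = 2.96e-14 and 1.64e-05 by edgeR).

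Genes of the branches that lead from farnesyl diphosphate to other products, 14 in all, had a median of 0.06 on WTD and of -0.04 with atorvastatin. On WTD 3 were lower, Ggps1, Rabggta and Coq2, by 0.37 to 0.52, where 16.0% of all tested genes were lower. With atorvastatin 0 passed by edgeR or DESeq2, 2 by limma-voom, and 1 had an unadjusted p under 0.05 by edgeR. By limma-voom 3145 of all 15574 tested genes passed. Without the 8 libraries that lack weak genes, 1 of the 14 was lower on WTD and 1 was lower with atorvastatin by edgeR. Of all 15877 genes tested there 2590 and 288 were lower. Acat1, the mitochondrial thiolase, had a log2 change of -0.42 on WTD (edgeR adjusted p = 7.79e-05) and of 0.11 with atorvastatin (edgeR adjusted p = 0.42), where Acat2 had -1.36 and 0.67. Idi2, the other isomerase gene, was at 0 counts in every mouse.

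**Figure D5:**
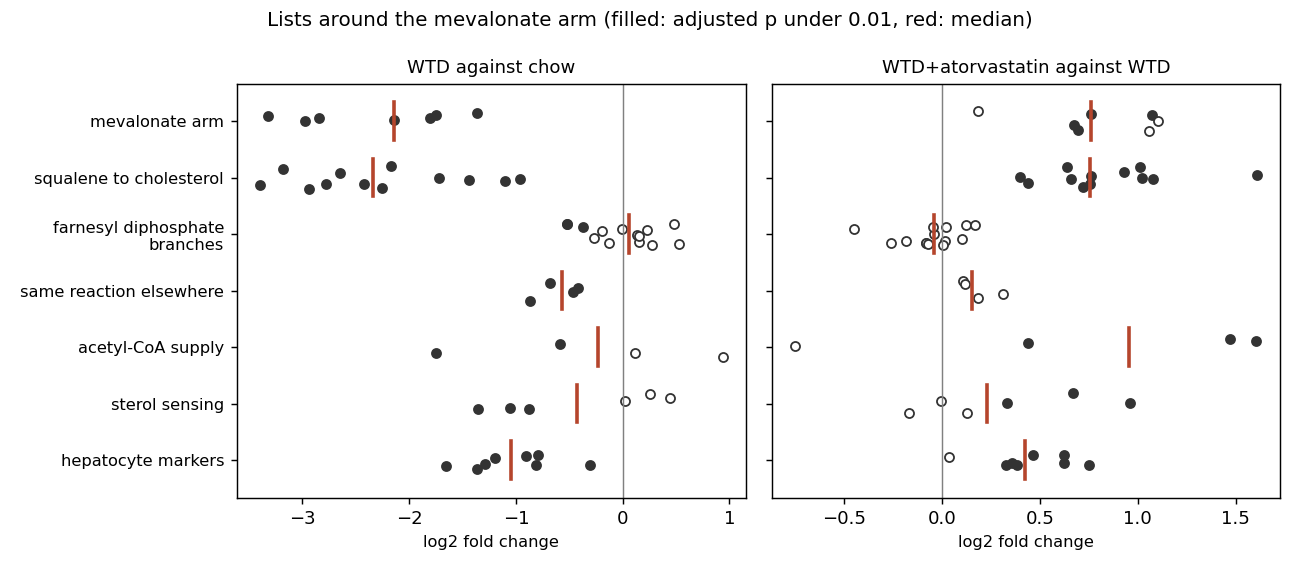
Log2 fold changes of the genes in each list, filled where the adjusted p was under 0.01, with the median of each list as a red line. The 7 members and the 12 genes from squalene to cholesterol have medians of -2.14 (the value of Fdps) and -2.34 in the left panel, against -1.05 for the 8 hepatocyte markers.

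Among genes that supply acetyl-CoA, Acss2, which makes it from acetate in the cytosol, fell by 1.75 on WTD and rose by 1.60 with atorvastatin (adjusted p = 5e-06 and 7.84e-05 by edgeR). Acly, which makes it from citrate, had a log2 change of 0.12 on WTD (edgeR adjusted p = 0.808) and rose by 1.47 with atorvastatin (adjusted p = 0.000604 by edgeR). The citrate carrier Slc25a1 fell by 0.58 and rose by 0.44, and Acss1, the mitochondrial synthetase, had 0.94 and -0.75 and did not pass. Of 6 genes of sterol sensing, Srebf2, Scap and Insig1 were lower on WTD and higher with atorvastatin, where 16.0% and 4.84% of all tested genes were. Without the 8 libraries that lack weak genes, 2 of these 6 were higher with atorvastatin, as were 2 of the 4 acetyl-CoA genes. Insig1, which retains the SREBP complex in the endoplasmic reticulum, had -1.36 and 0.96 (adjusted p = 9.98e-06 and 0.00183 by edgeR), while Insig2, Mbtps1 and Mbtps2 passed in neither comparison.

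Genes outside all lists were ranked by how closely their level followed the mean standardised level of the 7 members over the mice of a group, taking the lowest of the 3 group values of r. Rdh11, a retinol dehydrogenase, had r = 0.81 on chow, 0.66 on WTD and 0.97 with atorvastatin over 10, 16 and 16 mice, and Elovl6, a fatty acid elongase, had 0.64, 0.83 and 0.86. Atp5c1, a subunit of ATP synthase, had 0.66, 0.78 and 0.68, and Gm44421 had 0.67, 0.68 and 0.67. These genes did not all move with the groups as the members did, since Rdh11 fell by 1.98 on WTD and rose by 1.10 with atorvastatin, whereas Elovl6 had 0.45 on WTD (adjusted p = 0.252 by edgeR) and rose by 1.15. Atp5c1 fell by 0.43 on WTD and had 0.15 with atorvastatin (adjusted p = 0.111 by edgeR), and Gm44421 had -0.79 and 0.55 and passed in neither.

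Markers of liver cell types moved in the same comparisons. All 8 hepatocyte markers were lower on WTD, with a median log2 fold change of -1.05, where 16.0% of all tested genes were lower. With atorvastatin 7 of the 8 were higher, with a median of 0.43, where 4.84% of all tested genes were. Macrophage markers were higher on WTD in 6 of 8 genes, stellate cell and fibroblast markers in 6 of 8 and cholangiocyte markers in 5 of 5, where 17.5% of all tested genes were higher. With atorvastatin 4, 4 and 1 of these lists' genes were lower, where 2.26% of all tested genes were. The macrophage marker Clec4f (0.62) and the stellate cell marker Reln (0.47) were higher with atorvastatin (adjusted p = 0.0047 and 0.000823 by edgeR), where 4.84% of all tested genes were. Without the 8 libraries that lack weak genes, 0 macrophage and 0 stellate cell and fibroblast markers were higher with atorvastatin. In that fit 3 and 3 of them and 0 cholangiocyte markers were lower, and 5 of the 8 hepatocyte markers were higher. Of all 15877 genes tested there 487 were higher and 288 lower. The part of these cell types in the members' values was not tested. The mean log2 level of the hepatocyte markers was also added to the model, a choice made after the data were seen. Hmgcs1, Mvk and Idi1 still passed between WTD and chow in that model, at -2.25, -1.31 and -2.63. Of all 15574 tested genes, 74 were lower there and 251 higher. Acat2 had -0.30, Pmvk -0.36 and Mvd -1.07 in that model and did not pass, and nor did Fdps. Between atorvastatin and WTD 0 members and 0 of all 15574 genes passed in that model by edgeR, with 2 members and 1142 genes at an unadjusted p under 0.05, and Idi1 had 0.76 and Hmgcs1 0.43 (adjusted p = 0.583 for each). Of the 12 genes from squalene to cholesterol, 5 were lower on WTD in that model and 0 passed with atorvastatin by edgeR, 7 of them with an unadjusted p under 0.05. The marker level spanned 11.52 to 12.01 on chow, 10.42 to 11.33 on WTD and 10.76 to 11.47 with atorvastatin on the log2 scale, so chow does not overlap with the other groups in it, and hepatocyte content and diet cannot be told apart there. The WTD and WTD+atorvastatin ranges do overlap, and the part of hepatocyte content in the members' values was not tested further.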

How the data were processed

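Per the labels, messenger RNA was captured with oligo-dT beads and libraries kept the strand. The authors trimmed reads with Trimmomatic, aligned them to GRCm38 (GENCODE annotation) with STAR and counted read pairs per gene with HTSeq-count 0.6.1p1. The deposited unit is the count, without normalization. The strand setting of the counting is not given in the sources used here, so an antisense gene may share reads with a member. The table of all mice was identical to the 42 single tables. Lines that name no gene held 12.92% of read pairs on average and were left out.

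Positions, lengths and overlaps were taken from GENCODE vM21, near copies were searched with blastn 2.17.0 (at least 90% identity over 300 bases), and promoters came from RefSeq. Genes kept by filterByExpr (at least 10 counts, 15 in total) were tested with edgeR 4.0.16 in R 4.3.3 after TMM scaling. The quasi-likelihood fit was robust and held all 42 mice in 3 groups without covariates, since the labels give no batch. P values were adjusted by Benjamini and Hochberg over 15574 genes, and those under 0.01 were called. CPM used TMM-scaled library sizes. Within-mouse ratios used a pseudocount of 0.5, and permutation tests were two-sided with 100000 resamples. The depth of 15661381 to 36224054 counts per mouse sets the counting error, which is large only for Fdps and for Idi1 in some mice. Each mouse is 1 animal, and animals were the replicates.

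Alternatives were DESeq2 1.42.0, limma-voom (limma 3.58.1) with a weight for each library, upper-quartile and RLE factors, other filters, only the groups compared, leaving out 8 libraries, a clock score as covariate, an adjusted p under 0.05 and leaving out each mouse. The hepatocyte marker level as covariate, and correlations without the 6 treated mice with a TMM factor over 1, were added after the data were seen. The methods were tested on simulated data.

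The members and gene lists were chosen with earlier results of these data known. Named are the 7 members, every gene of the lists of like reactions and of acetyl-CoA supply, genes of the other lists that were called with atorvastatin, and the 5 genes outside the lists that were most like the members. For the last, r was taken within each group between a gene's log2 CPM (prior count 2) and the mean standardised log2 CPM of the members, and genes were ranked by their lowest r. Some genes that this rule takes are not reported here. Ggps1, Rabggta and Coq2 and the other listed genes that were not called were named after their values were seen. Permutation tests ran in scipy 1.17.1 and numpy 2.4.6 under Python 3.11.15, tables in pandas 2.3.3 and figures in matplotlib 3.10.9.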

Additional observations from a re-analysis of the deposited data

Results flagged for a closer look

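Over the groups of 10 mice, the highest or lowest mouse was tested for its distance from the others, and 2 of the 7 members had a chow-fed mouse that stood apart, where chance gives about 1 in 20. Mvk was at 72.06 CPM in chow-fed replicate 9, and the next mouse had 57.42. Fdps was at 14.18 CPM in chow-fed replicate 2, one of the libraries that lack weak genes, and the next mouse had 7.701.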

How the results depend on the processing

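No paired analysis was possible because the replicate numbers in the labels name different animals in each group. Between atorvastatin and WTD 1106 genes were called, 3145 with limma-voom and 2021 at an adjusted p under 0.05. The share of them that were higher, 68.2%, was 50.9% with DESeq2 and 54.9% with RLE normalization. Leaving out each mouse gave 4952 to 5384 genes between WTD and chow, 913 to 1575 between atorvastatin and WTD and 3651 to 4101 between atorvastatin and chow, with 7 to 7, 4 to 5 and 6 to 6 members called. Mvd was called between atorvastatin and WTD in 5 of these 42 fits (without WTD replicates 1, 3 or 11 or treated replicates 7 or 15), and with DESeq2, limma-voom, the clock score or an adjusted p under 0.05 (1.02, 1.13, 1.21 and 1.06). Pmvk was lost without the 8 libraries that lack weak genes (0.58), which also left 3 ratios that differed between atorvastatin and WTD (6 with them), 4 correlated pairs on chow (2 with them) and 2 on WTD (6 with them). Without the 6 treated mice whose TMM factor was over 1, chosen after the data were seen, 0, 1 and 0 pairs were correlated on chow, on WTD and with atorvastatin (2, 6 and 16 with them), where for chow and WTD only the adjustment changed. With the hepatocyte marker level as covariate 325, 0 and 1129 genes and 3, 0 and 3 members were called in the 3 comparisons, and Mvk between atorvastatin and WTD turned to -0.0239. The cause of these lost calls was not tested. With at least 10 counts in every mouse, Idi1 and Fdps were not tested. The call of every other member kept its side of the threshold under every alternative other than the hepatocyte covariate, where it could be tested.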

Other observations

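Mvk shares its start region with Mmab, a gene of cobalamin metabolism on the other strand whose start lies 209 bases away, and the pair was chosen for description after its values were seen. Mmab had a log2 change of -1.58 ± 0.15 between WTD and chow (SE, edgeR adjusted p = 2.86e-12) and of 0.48 ± 0.14 between atorvastatin and WTD (SE, edgeR adjusted p = 0.0121), where Mvk had -1.81 and 0.18. The pseudogene Gm3571, which matches part of the Fdps transcript at 98.9% identity, had -2.24 ± 0.41 between WTD and chow (SE, edgeR adjusted p = 8.51e-06) and 0.34 ± 0.37 between atorvastatin and WTD (SE, edgeR adjusted p = 0.652).

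Of 12 tested genes of the circadian clock, 1 was higher and 2 were lower on WTD than on chow. Of all tested genes 17.5% were higher and 16.0% lower in this comparison. Between atorvastatin and WTD 0 of the 12 clock genes passed by edgeR or DESeq2 and 4 were higher by limma-voom, with 3 at an unadjusted p under 0.05 by edgeR. By limma-voom 1835 of all 15574 tested genes were higher, and by edgeR 24.5% had an unadjusted p under 0.05. Of 5 endothelial markers 1 was higher and 2 were lower on WTD, and 2 were higher with atorvastatin, where 4.84% of all tested genes were. All 3 tested neutrophil markers were higher on WTD, and with atorvastatin 0 passed by edgeR, DESeq2 or limma-voom, with 1 at an unadjusted p under 0.05 by edgeR. Of 6 markers of T and B cells 0 passed by edgeR, DESeq2 or limma-voom between WTD and chow, with 1 at an unadjusted p under 0.05 by edgeR, and 0 passed between atorvastatin and WTD, with 0 at that p. Without the 8 libraries that lack weak genes, 0 clock genes were higher and 1 was lower on WTD. In that fit 2 of the 3 neutrophil markers were higher on WTD. Of the endothelial markers 2 were higher and 2 lower on WTD, and 1 was higher with atorvastatin. Of all 15877 genes tested there 2951 were higher and 2590 lower on WTD, and 487 were higher with atorvastatin.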
